A study of Mus musculus with 13 samples.

Results

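Tuft cells are the rare chemosensory cells of the gut epithelium, and the barcodes described here were chosen in single-cell RNA-seq of colon by the tuft genes they carried. A barcode with at least 500 UMIs (counted RNA molecules), at least 200 genes and less than 25% mitochondrial UMIs was a member if it held at least 5 UMIs of the epithelial genes Epcam, Krt8 and Krt18 together and at least 4 UMIs of Dclk1, Trpm5, Avil and Sh2d6 with at least 2 of these 4 genes detected, no UMI of the T cell gene Cd3e and fewer than 5 UMIs of the enteroendocrine genes Chga and Chgb. In all, 648 of 118892 barcodes that passed the first filters were members. Of these, 259 came from the 3 libraries of colon mucosa (123, 68 and 68) and 389, or 60.0%, from the 10 libraries of colon tumors (14 to 83 each). The comparison barcodes, called other epithelial barcodes below, met the same conditions apart from the tuft genes and numbered 36360. Mucosal members carried the tuft genes that the rule did not use and are called tuft cells below. Most tumor members did not carry them, so they are called tumor members, and the 2 tissues are described separately.

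All 13 libraries came from 3 C57BL/6J mice of genotype ApcMin/+; p16cis/cis, which carry a truncating allele of the tumor suppressor Apc together with an allele made to model epigenetic silencing of p16, and all mice had received the supplemented diet, enriched in folate and its cofactors. Mouse C (age 20 weeks) gave 1 adjacent mucosa and 4 colon tumor libraries, mouse A (24 weeks) 1 and 4, and mouse B (23 weeks) 1 and 2. No library of another genotype or diet was used, so nothing below compares diets or genotypes. Mucosa was released with EDTA and then TrypLE while tumors were digested with a tumor dissociation kit, on the same day, so tissue and dissociation cannot be told apart in any comparison of mucosa with tumor. The libraries were made with the 10x 3' v3.1 kit and held 57221300 to 116133079 UMIs over 6537 to 15049 barcodes. Pairs of libraries shared 14 to 61 barcode sequences, and no member barcode occurred in 2 libraries. All 7 libraries whose label says female had more Ddx3y, a Y-linked gene, than Xist, as did the rest (Ddx3y 29.95 to 51.7 CPM, UMIs of a gene scaled to a common total of UMIs, and Xist 0.0123 to 0.134 CPM over all libraries), so the sex labels were not used. In mucosa, members had a median of 11599, 5674 and 8686 UMIs in mice C, A and B, against 24544, 10554 and 14948 in other epithelial barcodes.

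Tuft cells sense luminal metabolites and parasites through G protein-coupled receptors and a taste-type cascade that ends in the cation channel Trpm5. They depend on the transcription factor Pou2f3, which binds octamer sequences and works with the coactivators encoded by 1810046K07Rik (also called Pou2af2) and Colca2 (Pou2af3). They release interleukin 25, leukotrienes, prostaglandins and acetylcholine, and in the intestine they are known for starting type 2 immunity and for carrying the leukocyte surface phosphatase Ptprc (CD45) on a subset of cells.

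Because the genes that stood out in mucosal tuft cells included Pou2f3 and both coactivators, the 250 bases before the start of each gene were searched for the octamer ATGCAAAT and its reverse complement ATTTGCAT, both read on the strand of the gene. The forms can share their outer bases AT, and no matches in the 8 genes named here overlapped. Sequences are those of RefSeq for build GRCm38.p6 and are printed 5′ to 3′ on the strand of the gene, with the octamer in capitals. Of the 139 genes at least 4-fold higher in tuft cells of all 3 mucosa libraries, described below, 112 matched a RefSeq window and 8 of these (7.14%) held the octamer on either strand, against 435 of 27025 windows overall (1.61%). The 8 genes, chosen after their values were seen, were 1810046K07Rik, Cables2, Hpgds, Kctd12, Ly6g6d, Nradd, Stox2 and Zfp428. The window of the coactivator gene itself, chr9:51328919-51329168 on the minus strand, is shown whole because it held 1 match in each orientation, 86 and 55 bases before the start. For Hpgds, a prostaglandin D synthase (chr6:65144886-65144915, minus strand), and Nradd, a gene of neuronal-type tuft cells (chr9:110624577-110624606, minus strand), 30 bases around the match are shown, 174 and 202 bases before the start. A match is a description of letters and not a binding site.
1810046K07Rik: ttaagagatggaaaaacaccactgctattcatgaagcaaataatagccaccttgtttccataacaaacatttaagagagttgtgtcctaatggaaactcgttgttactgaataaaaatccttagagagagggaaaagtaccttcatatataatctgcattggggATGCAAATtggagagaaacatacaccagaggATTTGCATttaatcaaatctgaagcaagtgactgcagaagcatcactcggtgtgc
Hpgds: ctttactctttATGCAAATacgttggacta
Nradd: cattgcatggcATTTGCATgccagtggcct

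The members of mucosa carried the genes of the rule well above its threshold. These values chose the cells and are given only as description. Dclk1 was detected in 93.5 to 98.5% of tuft cells of the 3 libraries, Avil in 91.2 to 95.9%, Trpm5 in 80.9 to 87.8% and Sh2d6 in 82.4 to 98.4%, and the median tuft cell held 28, 14 and 23 UMIs of the 4 genes in mice C, A and B. Only 8 mucosal members stood at the threshold of 4 UMIs, and 9 barcodes just outside it held 3. The conditions on Cd3e, Chga and epithelial genes removed few barcodes, since 262 mucosal barcodes had the tuft genes and 259 were kept. The gene lists below group what tuft cells are known for. Pou2f3, which the rule did not use, was at 69.8, 48.7 and 51.3 CPM in the summed UMIs of tuft cells of mice C, A and B, and at 0.132, 0.062 and 0.041 CPM in other epithelial barcodes.

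The transcriptome of mucosal tuft cells was set against that of the other epithelial barcodes of the same library. Since the rule made this contrast, no test was applied. Among 5453 genes with at least 20 CPM in all 3 mucosa libraries, either in tuft cells or in other epithelial barcodes, 139 were at least 4-fold higher in tuft cells of all 3 mice (2.55%) and 13 at least 4-fold lower (0.238%). The median over all these genes was 1.08-fold. The plot of tuft genes in mucosa shows the values behind this description, grouped by role.

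**Figure D1:**
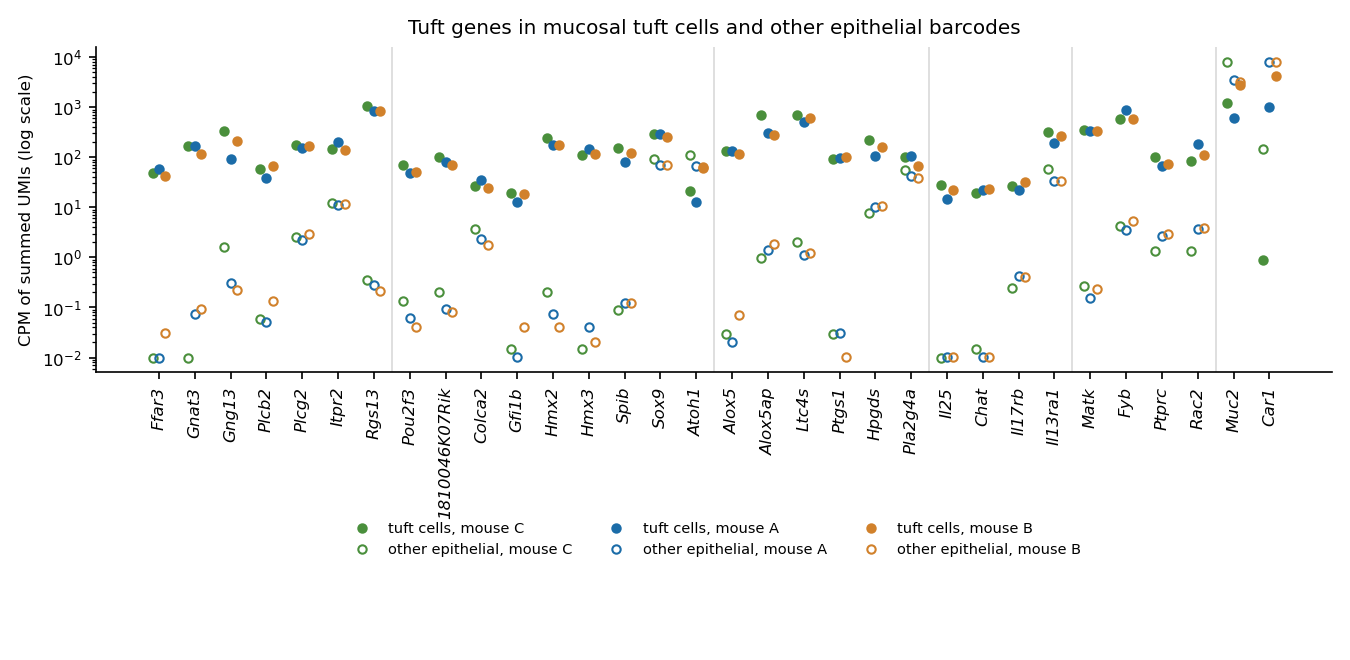
CPM (log axis) summed over tuft cells (filled) and other epithelial barcodes (open) in each of the 3 mucosa libraries, for receptors and signaling genes, transcription factors, eicosanoid enzymes, cytokine and acetylcholine genes, leukocyte-type genes and, at the right, the goblet gene Muc2 and the absorptive gene Car1. Values under 0.01 are drawn at 0.01. Rgs13 stood at 853 to 1055 CPM in tuft cells and below 1 CPM elsewhere, whereas Car1 in mouse C was near 1 CPM in tuft cells and at 1027 and 4121 CPM in mice A and B.

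Receptors and the taste-type cascade were represented from the membrane to the calcium store. Of 8 such genes among the 5453, 7 were at least 4-fold higher in all 3 libraries. The short-chain fatty acid receptor Ffar3 stood at 47.7, 58.4 and 43.1 CPM in mice C, A and B, with 0, 0 and 0.0307 CPM in other epithelial barcodes. Gnat3, the gustducin alpha subunit, stood at 169, 170 and 114 CPM and its partner gamma subunit Gng13 at 330, 92.4 and 214 CPM. The level of Gnat3 was alike in mice C and A and lower in B, whereas Gng13 was lowest in A. Of the phospholipases downstream, Plcb2 stood at 58.5, 38.9 and 65.7 CPM and Plcg2 at 175, 151 and 168 CPM. Of the inositol trisphosphate receptors that release stored calcium, Itpr2 stood at 147, 206 and 140 CPM, 11.9- to 18.5-fold above other epithelial barcodes. Itpr3 did not stand out, at 22.5, 32.4 and 42.1 CPM against 35.4, 32.7 and 40.1. Rgs13, a regulator that turns G protein signals off, averaged 921 ± 116 CPM (SD, n = 3) and stood at 0.353, 0.279 and 0.215 CPM in other epithelial barcodes of mice C, A and B.

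Some receptors known from tuft cells of other organs were low or at 0. The taste receptor genes Tas1r1 and Tas1r2 and the vomeronasal receptor gene Vmn2r26 had no UMI in mucosal tuft cells, and Tas1r3 had 1, 2 and 0 UMIs. Sucnr1, the succinate receptor of small intestinal tuft cells, had 1 UMI in mouse C (0.450 CPM) but 13 in mouse A (21.1 CPM) and 26 in mouse B (26.7 CPM), detected in 5.88 and 16.2% of cells in the last 2. Sucnr1 was thus lowest in the mouse whose tuft cells had the most UMIs.

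Of 10 tuft transcription factor genes that could be compared, 7 were at least 4-fold higher in all libraries. Besides Pou2f3, its coactivator genes 1810046K07Rik (103, 81.1 and 71.8 CPM) and Colca2 (26.1, 35.7 and 24.6 CPM) were well above other epithelial barcodes (0.206, 0.093 and 0.0819 CPM for the first, 3.73, 2.34 and 1.77 CPM for the second). The homeobox genes Hmx2 and Hmx3 stood at 174 to 243 and 113 to 149 CPM, and Spib, an Ets factor known from B cells and M cells, at 81.1 to 153 CPM. Runx1 was less particular, at 72.9 to 102 CPM against 17.0 to 21.1 CPM. Gfi1b stood at 19.4, 12.97 and 18.5 CPM and so fell below the 20 CPM limit of the comparison. Sox9, which marks crypt-base and tuft cells, stood at 290, 294 and 257 CPM, 3.14- to 4.15-fold above other epithelial barcodes, and the stem cell factor Ascl2 at 35.7 to 46.4 CPM, 2.01- to 2.67-fold above them. Atoh1, the secretory lineage factor, was not higher in tuft cells, at 21.6, 12.97 and 60.5 CPM against 111, 67.1 and 63.9 CPM.

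Enzymes of eicosanoid synthesis were present for both the leukotriene and the prostaglandin D2 branch, and 5 of the 7 genes compared were at least 4-fold higher in all libraries. For leukotrienes, the 5-lipoxygenase Alox5 stood at 133, 135 and 117 CPM, its activating protein Alox5ap at 707, 302 and 285 CPM and the leukotriene C4 synthase Ltc4s at 700, 509 and 602 CPM. Alox5 was at or below 0.0717 CPM in other epithelial barcodes. For prostaglandins, the cyclooxygenase Ptgs1 stood at 93.7, 95.7 and 102 CPM and Hpgds at 223, 107 and 158 CPM. The other cyclooxygenase, Ptgs2, had no UMI, nor did the thromboxane synthase Tbxas1. The phospholipase Pla2g4a (104, 109 and 67.7 CPM) and the prostaglandin-degrading enzyme Hpgd (109, 123 and 111 CPM) were shared with other epithelial barcodes, the latter at 61.7, 124 and 120 CPM there. Ptgs1 was one of the steadiest tuft genes across mice, with a highest to lowest ratio of 1.08, whereas Alox5ap differed 2.48-fold.

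Effector genes were sparse in tuft cells. Il25, the cytokine that activates type 2 innate lymphoid cells, stood at 27.9, 14.6 and 22.6 CPM (62, 9 and 22 UMIs), against 0, 1 and 1 UMIs in all other epithelial barcodes of the 3 libraries. Chat, which makes acetylcholine, stood at 19.8, 22.7 and 23.6 CPM, with 1 UMI in the other epithelial barcodes of each library. The vesicular acetylcholine transporter Slc18a3 had 1 UMI in all and the choline transporter Slc5a7 none, whereas Slc5a7 had 0, 18 and 2 UMIs in other epithelial barcodes of mice C, A and B. Tslp stood at 3.15, 3.24 and 1.03 CPM. Of the receptors, Il17rb (27.0, 22.7 and 31.8 CPM) and Il13ra1 (325, 190 and 266 CPM) were at least 4-fold higher in all libraries, while Il4ra (2.004- to 2.49-fold) and Il10rb (1.07- to 1.34-fold) were not.

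Tuft cells carry a tuft of long microvilli. Of 9 genes for microvilli and the cytoskeleton outside the rule, 3 were at least 4-fold higher in all libraries, among them Espn, an actin bundler (458, 498 and 508 CPM), and the keratin Krt23 (175, 201 and 194 CPM). The brush border genes Vil1, Cdhr2, Cdhr5, Eps8, Ush1c and Myo1a were shared with other epithelial barcodes, and Vil1 stood at 188, 234 and 236 CPM against 109, 172 and 157 CPM.

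Of 16 genes best known from leukocyte signaling, 14 were at least 4-fold higher in every library. They included the Csk-related kinase Matk (358, 329 and 336 CPM against 0.155 to 0.265), the adaptor Fyb (595, 889 and 593 CPM), the endoplasmic reticulum protein Lrmp (1314, 777 and 893 CPM), the phosphatases Ptpn6 (310 to 360 CPM) and Ptpn18 (459 to 600 CPM), the lipid phosphatase Inpp5d (47.0 to 63.0 CPM), the Tec kinase Bmx (63.2 to 103 CPM) and the exchange factor Vav1 (84.3 to 122 CPM). Lyn and Inpp5j were higher by a smaller factor. The T cell genes Cd3d, Cd3g, Cd8a and Trac had no UMI in tuft cells of mice C and A and at most 6 UMIs (Cd3d) in mouse B, and the other 3 T cell markers, Cd7, Gzma and Cd160, had at most 7 UMIs per library. Of 8 macrophage markers, Csf1r, Adgre1, C1qb and Spp1 had no UMI in any library, 3 had at most 4, and Cd14 was shared with other epithelial barcodes. The B cell receptor gene Cd79b stood at 9.91, 14.6 and 12.3 CPM in tuft cells. Most genes of this list were also present in mucosal T cells, with Rac2 at 947, Ptprc at 842, Ptpn18 at 688, Fyb at 325, Ptpn6 at 76.7, Lrmp at 61.4, Inpp5d at 57.4, Vav1 at 38.1, Skap2 at 32.8 and Matk at 31.2 CPM there, whereas Bmx was at 0.201 CPM.

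Ptprc itself, which the rule left free, stood at 103, 66.5 and 74.9 CPM in tuft cells of mice C, A and B and at 1.34, 2.65 and 3.00 CPM in other epithelial barcodes. To compare shares of cells across depths, each cell with at least 3000 UMIs was thinned at random to 3000. After thinning, 27.3, 20.7 and 30.8% of tuft cells had a Ptprc UMI (33 of 121, 12 of 58 and 20 of 65), against 0.6, 0.8 and 0.9% of 2000 other epithelial barcodes per library. Before thinning the shares in tuft cells were 52.8, 36.8 and 57.4%. T cells reached 85.3, 77.8 and 78.0%, the second from only 9 cells. Other genes followed the same order of tuft cells over other epithelial barcodes: Ltc4s was detected in 85.1, 75.9 and 86.2% of thinned tuft cells, Fyb in 83.5, 79.3 and 78.5%, Pou2f3 in 28.9, 17.2 and 20.0% and Il25 in 13.2, 10.3 and 9.23%.

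Absorptive markers were low in tuft cells, but not equally in the 3 libraries, and goblet, stem and cycling genes were present. None of 7 goblet, 8 absorptive, 1 enteroendocrine and 7 stem and cycling genes compared was at least 4-fold higher in all 3. Only 2.55% of all 5453 genes were, so none among so few genes is near that share. Of the 8 absorptive genes 6 were at least 4-fold lower in all 3, against 0.238% of all genes. Car1, a carbonic anhydrase of surface colonocytes, stood at 0.901 CPM in tuft cells of mouse C but at 1027 CPM in mouse A and 4121 CPM in mouse B, where other epithelial barcodes stood at 7889 and 8014 CPM. Zg16, a goblet and surface gene, followed with 21.6, 913 and 1586 CPM. Other epithelial barcodes of mouse C were themselves low in Car1, at 146 CPM. The goblet genes Agr2 (3144, 2178 and 4204 CPM) and Spink4 (3379, 418 and 2089 CPM) were at 0.269- to 0.665-fold and 0.141- to 0.672-fold the level of other epithelial barcodes, and Stmn1, a gene of cycling and immature cells, at 0.656- to 1.27-fold (407 to 621 CPM). After thinning, 12.4, 20.7 and 30.8% of tuft cells had a UMI of the mucin gene Muc2, against 59.4, 47.7 and 33.3% of other epithelial barcodes, so tuft cells and the rest were close in mouse B. The part of free RNA or of doublets in these values was not tested. Of the mucosal members 23 were marked as possible doublets, 4 of 123, 11 of 68 and 8 of 68 in mice C, A and B. Among all filtered barcodes of these libraries 215 of 5188, 913 of 10684 and 670 of 9149 were marked.

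A few genes of other lists were also higher in tuft cells, though not all by 4-fold. Among enteroendocrine genes, Sct, the hormone secretin, stood at 82.9, 76.2 and 73.9 CPM against 8.55, 19.0 and 32.3 CPM, while Gcg, Cck, Sst and Pyy had at most 1 UMI per library in tuft cells. The receptor kinase Kit, also a mast cell gene, stood at 142, 63.2 and 101 CPM, 2.01- to 3.97-fold above other epithelial barcodes. Of the protease genes of mast cells and basophils, Cpa3, Mcpt2 and Mcpt8 had no UMI and Mcpt1 had 1 UMI each in mice C and B. Cma1 had 15 UMIs in mouse B (15.4 CPM against 13.4 CPM in other epithelial barcodes) and none in mice C and A. Nkd1, a Wnt target and inhibitor, stood at 45.9, 37.3 and 28.7 CPM, 21.8- to 44.6-fold higher than in other epithelial barcodes, while the Wnt targets Axin2 (0.846- to 1.30-fold) and Rnf43 (1.22- to 1.78-fold) were not. The stem cell receptor gene Lgr5 was 2.12- to 6.35-fold higher, at 21.2 to 34.1 CPM. The proliferation gene Mki67 had a UMI in 4.96, 10.3 and 7.69% of thinned tuft cells, below the shares of other epithelial barcodes (15.6, 22.2 and 20.3%) and of T cells (6.64, 22.2 and 16.9%, the second from 9 cells), and no cycling is read from it.

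Beyond the lists, the genes that stood out most in mucosal tuft cells (among the 25 with the highest lowest fold and at least 50 CPM in each library) included Ly6g6f (233, 82.7 and 83.1 CPM in mice C, A and B), a surface protein of the Ly6 region, the adaptor gene Sh2d7 (154, 126 and 170 CPM), the regulatory subunit of phosphoinositide 3-kinase gamma Pik3r5 (163, 126 and 160 CPM) and the axonemal dynein gene Dnah5 (185, 81.1 and 66.7 CPM). Ly6g6f and Dnah5, like Alox5ap, were highest in mouse C, and Sh2d7 and Pik3r5 were lowest in mouse A.

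Across mice the tuft program varied little compared with its height. Among 59 tuft genes outside the rule with a mean over the 3 libraries of at least 20 CPM, the highest library exceeded the lowest by less than 2-fold for 51, with a median ratio of 1.43. The 8 others were Atoh1 (4.67-fold), Gng13 (3.57-fold), Alox5ap (2.48-fold), Nradd (2.25-fold), Nrep (2.20-fold), Rac2 (2.18-fold), Hpgds (2.09-fold) and Inpp5j (2.08-fold). Gng13, Alox5ap, Nradd, Nrep and Hpgds were highest in mouse C, whose library also stood apart in Car1 and in the number of UMIs per cell. With 1 mucosa library per mouse, mouse, age and library cannot be told apart.

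Tuft cells of the small intestine have been divided into a neuronal-type and an immune-type group, the second marked by Ptprc. To ask which genes went with Ptprc in these colonic tuft cells, the thinned cells with a Ptprc UMI were summed and compared with those without one within each mucosa library, with library as a block and Ptprc left out of the fit (33 against 88 cells, 12 against 46 and 20 against 45). One UMI is worth 10.1, 27.8 and 16.7 CPM in the positive sums of mice C, A and B. By edgeR's quasi-likelihood test, 247 of 1897 genes differed at a Benjamini-Hochberg adjusted p below 0.05 (13%), 108 higher (5.69%) and 139 lower (7.33%) in positive cells. Of the 70 tuft genes outside the rule, 42 were tested, 23 were higher and 1 lower in Ptprc-positive cells, and 18 did not pass, with a median log2 fold change of 0.86 against 0.00 over all genes tested. These calls leaned on mouse A: without its library 16 genes passed and 1 of them was a tuft gene, with a median over 43 tuft genes of 0.75. With DESeq2 36 genes passed, 7 of them tuft genes (among them Alox5, Cdhr2, Espn, Fyb, Matk and Ptpn18), and without the library block 51 passed, 9 of them tuft genes. Leaving out cells with a UMI of another leukocyte gene gave 301 calls, 25 of them higher tuft genes. Doublet removal gave 230. The balance of directions was not stable: without thinning 253 genes were higher and 148 lower (of 5894 tested), and without the filter on low counts 44 were higher and 189 lower (of 12514 tested).

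The higher genes included leukocyte-type signaling (8 of 13 tested), microvillus genes (6 of 9) and eicosanoid enzymes (4 of 7). Matk stood at 1333, 889 and 883 CPM in positive cells of mice C, A and B and at 409, 442 and 459 CPM in negative cells, a log2 difference of 1.22 ± 0.19 (SE, adjusted p = 0.000106). The groups did not overlap, which held for 416 of all 1897 genes tested. Fyb rose by 0.93 (adjusted p = 0.000368) and Inpp5d by 1.32 (adjusted p = 0.0203) on the log2 scale. Cdhr2, a cadherin that links microvilli, stood at 384, 361 and 450 CPM against 68.2, 109 and 170 CPM, a log2 difference of 1.84 ± 0.27 (SE, adjusted p = 7.76e-05), and Espn was higher by 0.95 (adjusted p = 0.000526). Alox5 stood at 434, 389 and 383 CPM against 163, 101 and 104 CPM, a log2 difference of 1.59 ± 0.26 (SE, adjusted p = 0.00018), and Ltc4s was higher by 0.64 (adjusted p = 0.00685). Thus the 3 mice all placed positive cells above negative cells for these genes. Without the library of mouse A the log2 differences of Matk, Cdhr2 and Alox5 were 1.31, 1.89 and 1.499 and their calls were lost (adjusted p = 0.0535, 0.0508 and 0.0535 by edgeR). Spib (1.23), Sox9 (0.88) and Gnat3 (0.87) also rose, each without overlap, whereas Pou2f3 (0.25, adjusted p = 0.794) and Rgs13 (0.40, adjusted p = 0.0668) did not pass. Outside the lists, Strip2 (2.52), Crisp3 (2.38) and the phosphofructokinase gene Pfkp (1.91) also rose.

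The one tuft gene that fell was Gng13, a neuronal-type tuft gene, with 222, 55.6 and 183 CPM in positive cells and 508, 174 and 333 CPM in negative cells (log2 difference -1.17, SE 0.26, adjusted p = 0.00321). It was lower in positive cells within each mouse, though the ranges of the groups overlapped. The call was lost without the library of any 1 mouse, without the block and with DESeq2. Of the other neuronal-type genes only Rgs2 could be tested (0.14, not called). Of 4 immune-type genes besides Ptprc, 2 could be tested. Both were higher in positive cells, though the ranges of the groups overlapped. Of 8 stem and cycling genes only 2 could be tested, and both were lower in positive cells: Stmn1, a tubulin regulator of cycling and immature cells, stood at 121, 0 and 133 CPM against 610, 609 and 452 CPM (log2 difference -2.52, adjusted p = 0.00011), and the chromatin protein gene Hmgb2 fell by 1.16 (adjusted p = 0.00385). Gpx2, a glutathione peroxidase of the lower crypt, fell by 1.94 (adjusted p = 2.91e-06). Of 6 goblet genes tested 3 fell, among them Spink4 (-2.74), and so did Car1 (-3.12), the 1 absorptive gene tested, whereas the enteroendocrine gene Sct (0.60) was not called. Car1 had no UMI in either sum of mouse C, and Zg16 (-2.19) was not lower in positive cells there (50.5 against 45.5 CPM). Of 6 dissociation stress genes tested 2 were lower and 4 not called. The immediate early gene Fos, which dissociation can induce, stood at 10.1, 27.8 and 0 CPM against 125, 87.0 and 111 CPM (log2 difference -3.38, adjusted p = 0.00318), and Ier2 was lower too (-1.20, adjusted p = 0.00723). Positive cells also had fewer UMIs before thinning, with medians of 9881, 5135 and 7513 against 11849, 8824 and 11231, and the part of this difference in the calls was not tested beyond the thinning.

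**Figure D2:**
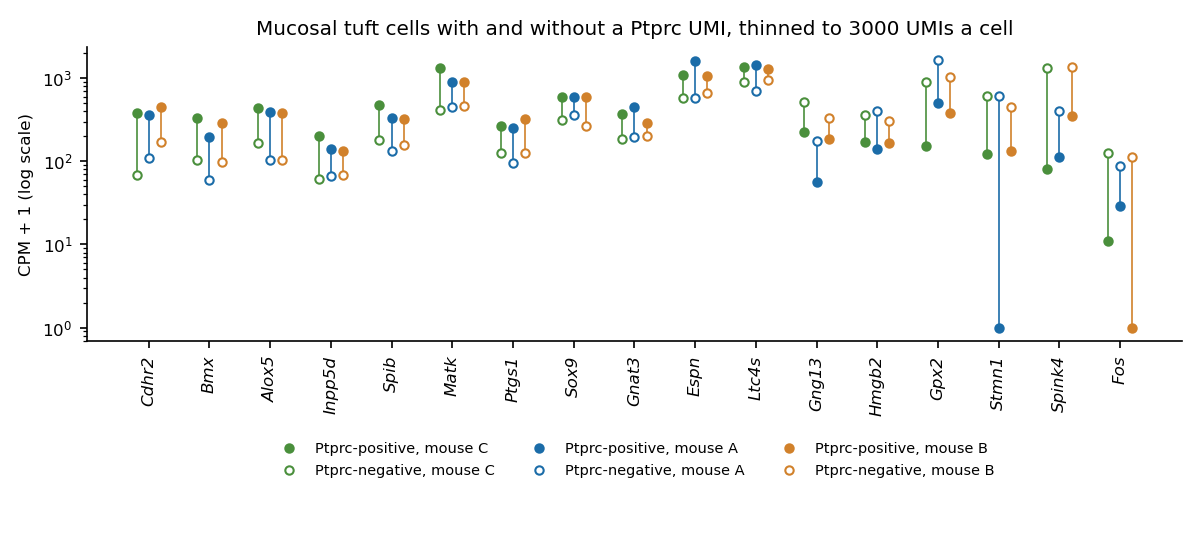
CPM plus 1 (log axis) of 17 genes in Ptprc-positive (filled) and Ptprc-negative (open) tuft cells of the 3 mucosa libraries, each cell thinned to 3000 UMIs and summed by library. Matk, Cdhr2 and Alox5 lie higher in the positive sums of all 3 mice, and Gng13, Stmn1 and Fos lower.

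The tumors gave more members than the mucosa, but few of them resembled mucosal tuft cells. The difference was measured with 11 program genes, namely Ffar3, Gnat3, Gng13, Rgs13, Pou2f3, 1810046K07Rik, Hmx2, Hmx3, Ltc4s, Il17rb and Krt23. These were the listed genes outside the rule that were at least 20-fold higher in mucosal tuft cells of every library than in other epithelial barcodes and in leukocytes. At least 3 of the 11 were detected in 249 of 259 mucosal members (96.1%) and in 65 of 389 tumor members (16.7%). The 11 genes were picked for being high in these same mucosal members, so the high share in mucosa follows from that choice. No fold over other tumor epithelial barcodes was required, and Krt23 was present there too. The limit of 3 was also set after the values were seen, so the split is a description. Of the tumor members, 44 had none of the 11 genes, 260 had 1 and 20 had 2. Those without the program had a median of 19604 to 46748 UMIs per library, against 5674 to 11599 for mucosal members, and 9857 to 15650 for other epithelial barcodes of tumors. The part of depth in the split was not tested. Members without the program met the rule mostly through Avil, which all 324 carried, at a median of 5 to 7 tuft UMIs per library, and Trpm5 was found in 0 to 16.2% of them. Avil was not confined to members in tumors: other epithelial barcodes held it at 51.1 CPM there, against 0.674 CPM in mucosa. At the threshold of 4 UMIs stood 99 tumor members, and 158 tumor barcodes just outside it held 3. The marker check thus goes against the name tuft cell for most tumor members.

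**Figure D3:**
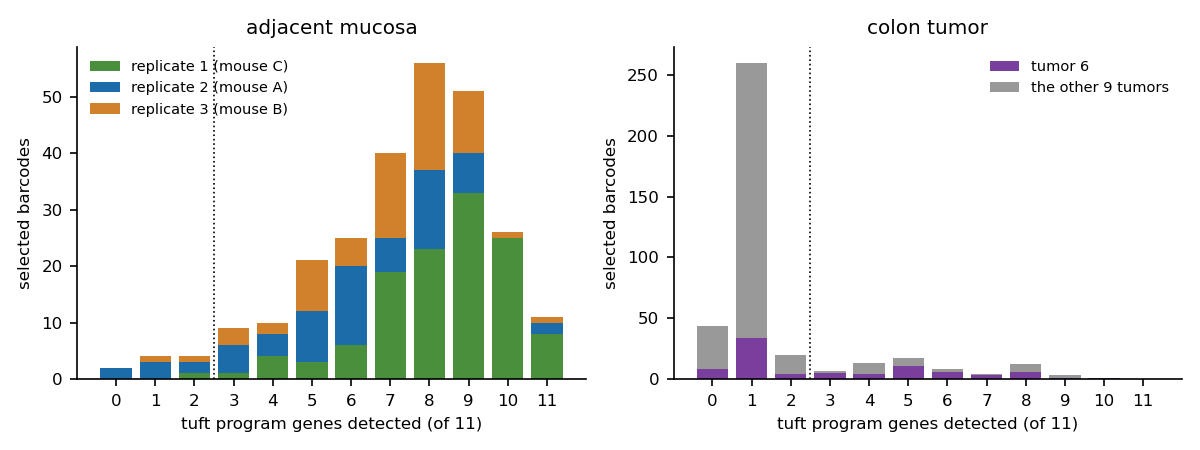
Number of members (y axis) by how many of 11 tuft program genes were detected in them (x axis), for the 3 mucosa libraries, and for tumors with tumor replicate 6 apart from the other 9. The dotted line marks the limit of 3 genes, which 249 of 259 mucosal members and 65 of 389 tumor members reached.

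Summed levels of the program genes Pou2f3, Rgs13 and Ltc4s are given as description only, since their detection made the split. Pou2f3 stood at 63.2 CPM in mucosal tuft cells with the program, at 66.1 CPM in the 65 tumor members with it, at 0.62 CPM in the 324 without it and at 0.04 CPM in other tumor epithelial barcodes. Rgs13 stood at 993, 411, 0.18 and 0.02 CPM in the same order, and Ltc4s at 659, 661, 1.07 and 0.84 CPM. Krt23 behaved otherwise, with 189, 127, 215 and 115 CPM, so in tumors it did not mark the members with the program. Of the 128 genes of the mucosal tuft profile outside the program, 6 were at least 4-fold higher in members without the program than in other tumor epithelial barcodes (4.69%, against 0.11% of 5442 genes), and 104 were in members with it (81.3%, against 3.14%). The enteroendocrine hormone gene Pyy stood at 295 CPM in members without the program and at 137 CPM in other tumor epithelial barcodes when the tumors were pooled, but it was higher in the members of only 5 of the 10 tumors and lower in the other 5.

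Members were counted as a share of epithelial barcodes. Since most tumor members lacked the program, this share cannot say whether tuft cells were rarer in tumors. The shares were 4.47, 0.838 and 1.15% in mucosa of mice C, A and B, with 95% Wilson intervals of 3.76 to 5.30, 0.662 to 1.06 and 0.910 to 1.46% that cover counting error only. Tumors ranged from 0.654 to 4.31%. In mouse C all 4 tumors were below the mucosa, in mouse A none of 4 was, and in mouse B 1 of 2 was. The mean difference of tumor minus mucosa over mice was -0.199 percentage points (two-sided exact permutation within mice, p = 0.827, smallest possible p 0.0133, 75 assignments, n = 3 mice). The sign rested on single libraries, since it turned to 1.15 points without the mucosa of mouse C and to 0.145 without tumor replicate 10. It also turned to 0.747 points when barcodes with any Ptprc UMI were left out, and to 0.0332 with a mitochondrial limit of 10%.

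Requiring more tuft genes, thinning all cells and counting all filtered barcodes each moved the difference further below 0. In that order the difference of mouse A moved from 1.40 to -0.0528, 0.0597 and -0.1955 points. That of mouse B moved from 0.897 to -0.882, -0.624 and -0.305, and that of mouse C from -2.90 to -4.17, -2.57 and -1.98. Mouse C thus kept the largest difference, while mice A and B moved the most. With at least 3 of the 4 tuft genes required, the mean difference was -1.70 points (two-sided exact permutation p = 0.0533, n = 3 mice), and with all cells thinned to 2000 UMIs it was -1.05 points (exact permutation p = 0.0533). As a share of all filtered barcodes, leukocytes included, the difference was -0.828 points (exact permutation p = 0.04). This share also depends on how much of a library was epithelial. Mucosa libraries held 2754 to 8114 epithelial among 5188 to 10684 filtered barcodes, and tumors 1373 to 2599 among 7417 to 10817. Without the mucosa of mouse C the 3 mean differences shrank to -0.468, -0.282 and -0.250 points (exact permutation p = 0.533, 0.667 and 0.4, smallest possible p 0.0667, n = 2 mice). With 2 mice no call was possible there. Members with at least 3 program genes made up 4.43, 0.752 and 1.12% of epithelial barcodes in mucosa of mice C, A and B. In tumors they made up 0 to 1.92%, with a median of 0.198%, and only tumor replicate 6 exceeded the mucosa of the same mouse. The next tumor stood at 0.304%, below all 3 mucosa libraries. The program genes were picked for being high in mucosal members, so this share favors mucosa by choice and is a description.

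**Figure D4:**
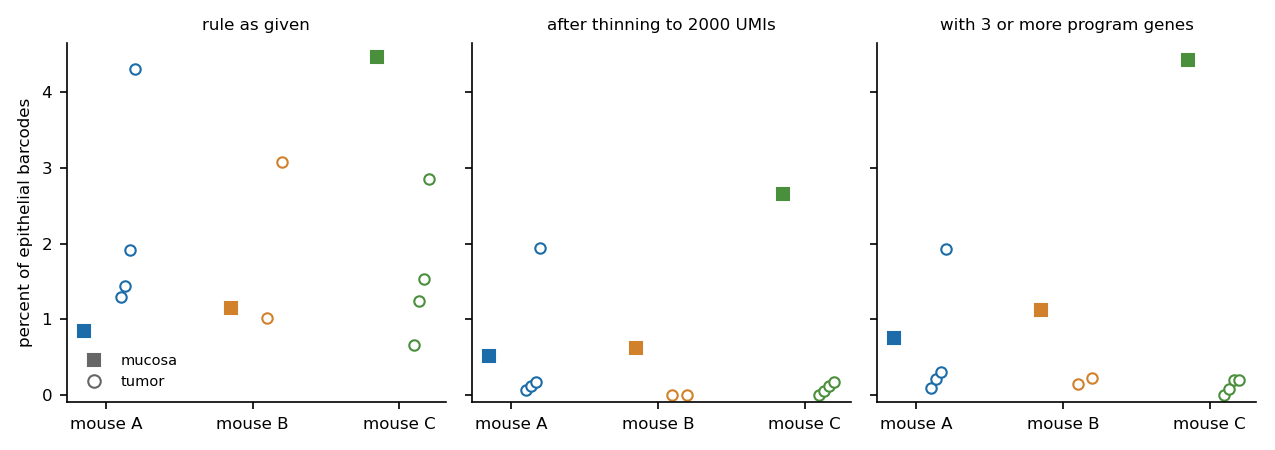
Members as percent of epithelial barcodes per library (y axis) for mucosa (squares) and tumors (circles) of each mouse, by the rule, after thinning to 2000 UMIs and with at least 3 program genes. Under the rule tumors range from 0.654 to 4.31%. With the program required 9 of the 10 tumors lie at or below 0.304%, and tumor replicate 6 lies at 1.92%. The program genes were picked in mucosal members, so that panel favors mucosa by choice.

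Gene by gene, tumor members were summed per mouse and compared with the mucosal members of the 3 mice. Fewer tuft cells among the members and less tuft RNA per cell cannot be told apart in such sums. Most UMIs of tumor members came from those without the program (11209845, against 619940 from those with it). By edgeR's quasi-likelihood test 1948 of 10612 genes (18.4%) were higher and 1772 (16.7%) lower in tumor members, at an adjusted p below 0.05 (35.1% in either direction). Of 58 tuft genes tested, 51 were lower, 2 higher and 5 not called, with a median log2 fold change of -3.13 against 0.05 over all genes. All 16 leukocyte-type genes, 7 of 7 eicosanoid enzymes, 9 of 11 transcription factors, 7 of 8 receptor and cascade genes, 7 of 9 microvillus genes and 5 of 7 cytokine and acetylcholine genes tested were lower. When members had to carry at least 3 of the 4 tuft genes (mucosa 119, 62 and 65 and tumor 13 and 56 cells in mice C, A and B, with mouse B's 8 tumor cells dropped), 5 of 58 tuft genes were lower and none higher, against 166 (2.36%) lower and 279 (3.96%) higher of 7038 genes, and the median was -0.23. The 5 were Rgs13, 1810046K07Rik, Hmx2, Il13ra1 and Pla2g4a, of which the first 3 also belong to the program. Tumor replicate 6 gave 41 of the 56 tumor cells of mouse A in this test. Without it 13 and 15 tumor cells were left, 16 of 57 tuft genes were lower and none higher (233 of 7033 genes lower, 3.31%, and 326 higher, 4.64%), and the median was -0.997.

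Named genes show the size of this difference. Pou2f3 stood at 2.69, 6.81 and 1.64 CPM in tumor members of mice C, A and B and at 69.8, 48.7 and 51.3 CPM in mucosal members, a log2 difference of -3.82 ± 0.36 (SE, adjusted p = 1.09e-05). The groups did not overlap, which held for 4993 of all 10612 genes tested. With at least 3 of the 4 tuft genes required its difference was -0.09 (adjusted p = 0.905), and -0.28 (adjusted p = 0.646) when tumor replicate 6 was left out as well. Rgs13 stood at 8.90, 32.1 and 27.8 CPM in tumor and 1055, 856 and 853 CPM in mucosal members (-5.31 ± 0.43, adjusted p = 1.35e-05), and it was lower by the stricter rule too (-2.05, adjusted p = 0.00149). Hmx2 stood at 2.28, 12.96 and 2.04 CPM against 243, 174 and 180 CPM (-4.99, adjusted p = 0.00276, and -1.22 with adjusted p = 0.0440 by the stricter rule). Ltc4s (-4.19), Il25 (-4.95) and Gnat3 (-5.21) fell under the rule as given, and Alox5 fell by 3.51 but stood at 0.24 (not called) under the stricter one and at -0.86 (adjusted p = 0.266) under it without tumor replicate 6. The 2 tuft genes that rose were Itpr3 (0.74, adjusted p = 0.0209) and Eps8 (0.55, adjusted p = 0.0452), and both were found in mucosal epithelium outside tuft cells. Neither was called with DESeq2, without the mucosa of mouse C or without the tumors of mouse A. Krt23 stood at 216, 242 and 137 CPM in tumor and 175, 201 and 194 CPM in mucosal members (0.13, adjusted p = 0.683).

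Tumor members carried Wnt target genes, as did other tumor epithelial barcodes. All 8 Wnt target genes tested were higher than in mucosal members, with a median log2 difference of 2.91. In the interaction test described below, 1 of the 8 was negative, 7 were not called and the median was 0.15. Axin2, a feedback inhibitor, stood at 158, 178 and 139 CPM in tumor members against 32.9, 19.5 and 16.4 CPM in mucosal members (2.73, adjusted p = 2.81e-06). Nkd1 stood at 280, 420 and 245 CPM against 45.9, 37.3 and 28.7 CPM (3.09, adjusted p = 1.31e-06). Other tumor epithelial barcodes held Axin2 at 134 CPM when pooled. Wif1, a secreted Wnt inhibitor, had 3745 UMIs in tumor and none in mucosal members, so it was at least 402-fold higher against a floor of 3 UMIs over all mucosal members, and Ptn, a growth factor, was at least 315-fold higher. Mt4, listed with Ptn as a gene of tumor epithelium chosen from these data, stood at 589, 784 and 54.4 CPM in tumor members of mice C, A and B and at 0 in mucosal members, and did not pass (adjusted p = 0.114). Notum rose by 8.16 and Lgr5 by 1.40 on the log2 scale. With at least 3 of the 4 tuft genes required, Axin2 (1.75), Nkd1 (2.04), Notum (6.35) and Ptn were still called, and Wif1 (adjusted p = 0.251) and Lgr5 (0.69, adjusted p = 0.417) were not. Of 6 goblet genes tested 3 were lower, Muc2 (-4.92), Agr2 (-3.14) and Zg16 (-8.12), and Spink4 (-1.26), Fcgbp (-4.22) and Tff3 (-1.32) did not pass. Outside the lists Retnlb was lower (-9.00). Of 2 enteroendocrine genes tested, Pyy was higher (9.27, adjusted p = 0.0196) and Sct lower (-2.66, adjusted p = 0.00214). The hemoglobin gene Hbb-bs, a red cell transcript, stood at 868, 2755 and 73.9 CPM in mucosal members and at 13.04, 3.95 and 5.31 CPM in tumor members (log2 difference -7.23). All 15 dissociation stress genes were higher too (median 2.34), with Atf3 at 345, 454 and 505 CPM against 6.75, 3.24 and 6.16 CPM and Fos higher by 2.34. Other tumor epithelial barcodes held Atf3 at 347 CPM when pooled, and in the interaction 1 of the 15 genes was positive and 14 were not called. Also higher in tumor members were 6 of 6 neutrophil genes and 4 of 6 macrophage genes tested. The neutrophil gene S100a8 stood at 624, 662 and 759 CPM in tumor members against 0, 1.62 and 0 CPM in mucosal members, at 1339, 1074 and 1774 CPM in other tumor epithelial barcodes and at 25116 CPM in tumor leukocytes. The part of leukocyte RNA and of dissociation in these differences was not tested.

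Other epithelial barcodes also differed between the tissues, so the tissue difference of members was compared with theirs in an interaction test, where a negative value means that members lay relatively lower in tumors. By edgeR's quasi-likelihood test 343 of 15723 genes (2.18%) had a positive and 488 (3.1%) a negative interaction at an adjusted p below 0.05 (5.29% in either direction). Of 65 tuft genes tested 32 were negative and none positive, with a median of -2.34 against 0.23 over all genes. With each mouse and tissue as a block, which pairs the 2 cell groups of a sample, 2935 genes were called (2052 positive, 883 negative) and 41 tuft genes were negative. The share of positive calls was 41.3% without the block, 69.9% with it and 23.5% with DESeq2, which called 330 positive and 1072 negative genes. Under the stricter rule of 3 tuft genes 88 of 16756 genes were called, 14 positive (0.0836%) and 74 negative (0.442%), and of 65 tuft genes tested 11 were negative and none positive. Without tumor replicate 6 as well, 17 of 65 were negative and none positive, against 94 negative (0.562%) and 26 positive (0.155%) of 16722 genes.

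For several tuft genes the interaction combined lower values of members in tumors with higher values of other epithelial barcodes there. Ptgs1 stood at 4.97, 12.96 and 2.04 CPM in tumor members of mice C, A and B against 93.7, 95.7 and 102 CPM in mucosal members, while other epithelial barcodes stood at 3.101, 3.57 and 1.78 CPM in tumors against 0.0294, 0.031 and 0.0102 CPM in mucosa (interaction -10.3 ± 0.72, adjusted p = 8.4e-06). The mucosal values of Ptgs1 in other epithelial barcodes rest on 2, 3 and 1 UMIs, and mucosal leukocytes held it at 2.19 CPM. Alox5 (-7.95) and Ptprc (-5.38) had the same form, and both are leukocyte genes as well, present in tumor leukocytes at 18.5 and 639 CPM. For Krt23 the members of the tissues overlapped, and other epithelial barcodes stood at 4.97, 4.70 and 3.93 CPM in mucosa and at 113, 131 and 83.7 CPM in tumors (interaction -4.20). Runx1 (-1.64) had this form too, with other epithelial barcodes at 17.0 to 21.1 CPM in mucosa and 65.6 to 73.6 CPM in tumors. Mucosal leukocytes held Runx1 at 33.7 CPM. The part of leukocyte RNA in these interactions was not tested. For Pou2f3, at or below 0.132 CPM in other epithelial barcodes of both tissues, the interaction of -2.62 did not pass (adjusted p = 0.118). It passed with each mouse and tissue as a block (-2.53, adjusted p = 0.0325), with DESeq2 (-2.68, adjusted p = 0.0154) and without tumor replicate 6 (-3.10, adjusted p = 0.0392), but its direction turned with at least 3 tuft genes required (0.99, adjusted p = 0.777) and when tumor replicate 6 was left out there too (0.68, adjusted p = 0.905). S100a8 was positive (4.47), but mucosal members held only 1 UMI of it in all. In tumors its level in members was below that of other epithelial barcodes in each mouse, as given above. Tm4sf1, a tetraspanin-like surface protein gene of the mucosal tuft profile, was negative (-9.43).

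The 65 tumor members with the program are described apart, without a test. Tumor replicate 6 gave 37 of them and the 9 other tumors 28, with 0 to 7 each, so that 8 of these 9 held any. At least 4-fold above other tumor epithelial barcodes of the same libraries were 102 of the 128 mucosal profile genes in the cells of tumor replicate 6 (79.7%, against 4.32% of all genes) and 87 in those of the other tumors (68.0%, against 2.11%). Dclk1, a gene of the rule, stood at 1658 and 528 CPM, Pou2f3 at 71.9 and 63.2 CPM, Rgs13 at 508 and 362 CPM, Ltc4s at 1270 and 353 CPM and Gng13 at 91.0 and 367 CPM in tumor replicate 6 and the others. Pou2f3, Rgs13, Ltc4s and Gng13 are program genes, and their detection helped to choose these cells.

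The 2 sets of cells differed in genes of tumor epithelium. Any of Wif1, Ptn, Notum or Mt4 was found in 11 of the 28 cells of the other tumors (39.3%, from 411243 UMIs, in cells of 7 of the 8 tumors), in 0 of the 37 of tumor replicate 6 (which allows a share of cells with such a UMI of up to 8.11%, from 208697 UMIs, and sets no limit on cells that express these genes) and in 1 of 249 mucosal tuft cells with the program (0.402%). In other epithelial barcodes the share was 56.4% in the other tumors and 46.7% in tumor replicate 6, and in leukocytes it was 2.71 and 1.09%. Pooled, Wif1 stood at 94.8 CPM in the cells of the other tumors and at 0 in those of tumor replicate 6, which allows up to 14.4 CPM. Single tumors carried the pooled values: tumor replicate 5 held 31 of the 39 Wif1 UMIs and 25 of the 28 Ptn UMIs, and tumor replicate 1 held 20 of the 23 Mt4 UMIs. Without those tumors Wif1 fell to 27.0, Ptn from 68.1 to 10.1 and Mt4 from 55.9 to 8.49 CPM, and each of these genes and Notum had no UMI in 5 of the 8 tumors. Among Wnt targets, Rnf43 stood at 89.97 CPM in the cells of the other tumors, 9.58 CPM (2 UMIs) in those of tumor replicate 6 and 20.6 to 28.4 CPM in mucosal tuft cells with the program by library. It was above all 3 mucosa libraries in 8 of 8 tumors, but tumor replicates 4, 7 and 8 held 1 Rnf43 UMI each, worth 42.3, 54.1 and 31.5 CPM. Axin2 stood at 82.7 CPM in the other tumors, 4.79 CPM (1 UMI) in tumor replicate 6 and 16.5 to 32.9 CPM in mucosa. It was above all mucosa libraries in 5 of 8 tumors, by 1 UMI in tumor replicate 4. Nkd1 stood at 175, 28.8 (6 UMIs) and 28.8 to 45.97 CPM, above all mucosa libraries in 4 of 8 tumors, and without tumor replicate 5, which held 44 of its 72 UMIs, the pooled level was 94.6 CPM. Levels of tumor replicate 6 rest on too few UMIs to be set below those of mucosa. The cells of tumor replicate 6 were shallower (median 3806 UMIs) and had a median of 17.8% mitochondrial UMIs, and markers of other cell types differed between the sets. The summed level of 8 macrophage markers was 2065 CPM there (7 detected, Adgre1 at 0) and 384 CPM in the others (6 detected, Adgre1 and C1qa at 0), with Lyz2 at 1639 and 77.8 CPM. That of 7 B and plasma cell markers was 1452 and 428 CPM (Ms4a1 at 0 in both), with Igkc at 1078 and 287 CPM. Ptprc stood at 287 and 80.2 CPM and Rac2 at 331 and 77.8 CPM. The 6 neutrophil markers summed to 10240 and 13377 CPM, with S100a8 at 3536 and 5386 CPM, and the 7 T cell markers to 0 and 14.6 CPM. The part of depth, leukocyte RNA, free RNA or normal mucosa within a tumor piece was not tested.

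**Figure D5:**
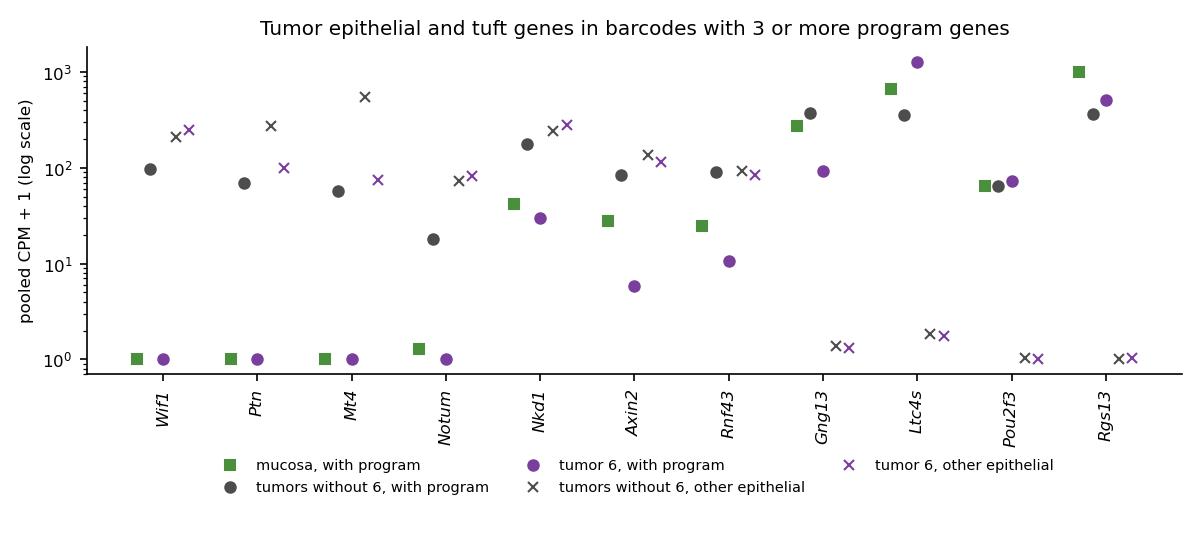
Pooled CPM plus 1 (log axis) of tumor genes, Wnt targets and tuft genes in mucosal tuft cells with the program, in tumor members with it from tumor replicate 6 and from the other 9 tumors, and in other epithelial barcodes of the same tumors (crosses). Wif1, Ptn, Mt4 and Notum are at 0 in tumor replicate 6 and at 17.0 to 94.8 CPM in the pool of the other tumors, where each has no UMI in 5 of the 8 tumors with such cells. Pou2f3, a program gene that helped to choose the cells, is at 63.2 to 71.9 CPM in all 3 sets with the program.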

How the data were processed

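Single-cell RNA-seq with the 10x 3' v3.1 kit was made from 3 mucosa and 10 tumor libraries of 3 mice. The deposited values are counts of UMIs per gene and barcode, made by the authors with Cell Ranger (version 6.0.0 in the submitters' processing notes, while the study's methods name another version, and which of them made these files was not settled) on mm10 and not normalized. Depth was 57221300 to 116133079 UMIs per library, and intervals cover counting error only.

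Barcodes were filtered and gated as stated in the report, in Python 3.11.15 with numpy 2.4.6, scipy 1.17.1 and scikit-learn 1.9.0. Possible doublets, scored against simulated doublets (0.8% per 1000 barcodes), were kept and removed in an alternative. The members, gene lists and tests were chosen with earlier results of these data known. Levels are CPM of summed UMIs. Cells were never replicates: sums per mouse and tissue (at least 10 cells) were tested with edgeR 4.0.16 in R 4.3.3 (quasi-likelihood, TMM, Benjamini-Hochberg over all genes tested, threshold 0.05), and shares with an exact permutation within mice. With 3 mice, p-values of the tissue comparison measure the spread between the sums of these mice. In the Ptprc comparison, with library as a block, they measure how the difference varied over the 3 libraries. The main interaction fit took the 2 cell groups of a sample as independent sums. The permutation p sets the mucosa library against the other libraries of its mouse. Named genes were those of the tuft, Wnt target and stress lists, the 10 called genes with the largest change in each direction whose groups did not overlap, and the 25 profile genes given in the report. Other lists were read by count, and their members named in the report were chosen after their values were seen. On simulated counts for the tissue comparison (18683 genes), 91% of 4-fold and 14% of 2-fold changes were recovered. The same shares were 42% and 4% for the interaction (24352 genes) and 30% and 2% for the Ptprc comparison (12515 genes). Mucosa and tumor of one mouse share the animal by label. The correlation of their deviations was -0.011, 0.050 and 0.083 over 10612 genes in mice A, B and C. Alternatives covered DESeq2 1.42.0, the replicate block, low counts, thinning, doublets, stricter gates, libraries as samples and leaving out each library (shares and Ptprc) or the mucosa or all tumors of each mouse (tissue and interaction). Some genes of the lists are not reported here.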

Additional observations from a re-analysis of the deposited data

Results flagged for a closer look

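Tumor replicate 6 stood apart from the 9 other tumors by the gap to its nearest neighbor in 3 related measures of 6 examined. Members with at least 3 program genes were 1.92% of its epithelial barcodes, against 0.304% in the next tumor. After thinning to 2000 UMIs members were 1.94%, against 0.175% in the next, and members with at least 3 of the 4 tuft genes were 2.13%, against 0.435%. Chance alone would mark about 1 in 20 groups. In the 3 other measures it was at an extreme but did not stand apart: members under the rule were 4.31% of its epithelial barcodes, against 3.08% in the next tumor, its members had the lowest median UMIs (10987 against 22614) and the highest median mitochondrial share (11.9% against 9.43%).

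The tissue difference of members differed from that of other epithelial barcodes by the interaction test of edgeR (Benjamini-Hochberg adjusted p below 0.05) for 343 genes in the positive and 488 in the negative direction. Among named genes the log2 interaction was -10.3 for Ptgs1, -7.95 for Alox5, -4.2 for Krt23, -1.64 for Runx1, -9.43 for Tm4sf1 and -5.38 for Ptprc. It was 4.47 for S100a8, of which mucosal members held only 1 UMI.

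Some epithelial barcodes outside the rule carried at least 3 of the 11 program genes, 17 in mucosa and 9 in tumors. They entered no comparison of members.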

How the results depend on the processing

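The sign of the share difference was not stable: tumor minus mucosa was 0.0332 points with a mitochondrial limit of 10%, 0.747 without barcodes holding Ptprc and 0.145 without tumor replicate 10, and ranged from -0.999 to 1.15 over left-out libraries. The difference passed the threshold only as a share of all barcodes (-0.828), which also depends on how much of a library was epithelial. Without the mucosa of mouse C, an alternative chosen after seeing the data, that difference was -0.250, and the smallest possible permutation p of 0.0667 allowed no call. The count of genes differing between tumor and mucosal members was 445 with at least 3 of the 4 tuft genes required, against 3720, in a test of fewer genes and cells, and 3050 to 3587 when the mucosa or all tumors of 1 mouse were left out. For the interaction it was 1402 with DESeq2, 88 with at least 3 tuft genes and 339 to 514 over the same left-out mice, against 831. For Ptprc it was 36 with DESeq2, 401 without thinning (a test of more genes) and 16 to 151 over left-out libraries, against 247. Causes other than those given were not tested.

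The replicate block pairs mucosa and tumor of one mouse in the tissue comparison, where the count with it was 3723. In the interaction it is each mouse and tissue, which pairs the cell groups of a sample, and the count was 2935. Without the replicate block the Ptprc count was 51.

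Alox5 in the tissue comparison turned to 0.24 and Pou2f3 in the interaction to 0.99 with at least 3 tuft genes. Krt23, which was not called, turned to -0.10 without doublets and -0.49 with at least 3 tuft genes, and ranged from -0.023 (without the tumors of mouse A) to 0.35 (without those of mouse B). Leaving out tumor replicate 6, chosen after seeing the data, gave 3755 tissue and 1001 interaction calls, and with at least 3 tuft genes 559 and 120, Krt23 at -0.53 and Pou2f3 in the interaction at 0.68. Tuft sums of 68 to 123 mucosal cells per library and tumor program cells of 0 to 7 in 9 tumors limit low genes.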
